A study of Mus musculus with 6 samples.

Results

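Fibrillins, latent transforming growth factor beta binding proteins (LTBPs) and tenascin C form the group described here, in all 7 genes of the 13970 listed by the authors. The 7 were chosen by name with their measured values, the log2 ratios given below, already known: Fbn1 (FBN1 in the authors' table), Fbn2 (FBN2), Ltbp1 (LTBP1), Ltbp2 (LTBP2), Ltbp3 (LTBP3), Ltbp4 (LTBP4) and Tnc (TNC). All 7 belong to the 13278 genes listed for both extractions, and none is among the 75 listed for the standard or the 617 listed for the optimized extraction alone. All 7 are also among the 280 genes of the authors' extracellular matrix list, and the other 273 genes of that list serve as their comparison. The values that chose the members are the values given below, so they are a description and no test was made of them.

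RNA was sequenced from material that pelleted through a 1 M sucrose cushion, which holds ribosomes, polyribosomes and other RNA-protein particles. The cells were untreated primary astrocytes, a main supporting cell type of brain tissue, grown from newborn C57BL/6JOlaHsd mice with both sexes pooled. For the standard extraction, cells were scraped off and frozen before lysis in Triton X-100 (1%) and sodium deoxycholate (1%) with 50 mM KCl. For the optimized extraction, cells were lysed on the plate in DDM (2%), a mild detergent, with 200 mM KCl. Each extraction has 3 libraries, of batches A, B and C, which makes 6 in all. Lysate holding 12 µg of RNA was loaded on each cushion in both extractions, and per the series' design text the mRNA sequenced was equalised between pellets. The scaling behind the ratios is unstated, so they are not read as yields. The authors' deposited table gives 1 log2 ratio per gene, optimized over standard, with no value per library and no error. The spread between replicates and the depth of the libraries are therefore unknown, and no difference below can be set against replicate error. Detergent, salt, freezing and scraping differ together between the extractions, so their parts cannot be told apart. A pellet pools many cells, so fewer cells carrying a transcript and less transcript per cell cannot be told apart either.

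Fibrillins are very long secreted glycoproteins that assemble head to tail into microfibrils, the thin filaments that carry elastic fibres and hold growth factors in the matrix. LTBPs resemble fibrillins in their chains of epidermal growth factor (EGF) repeats and cysteine-rich domains. Most of them bind the latent form of transforming growth factor beta (TGF-beta) inside the cell and tether it to the matrix after secretion, whereas LTBP2 does not bind it. Tenascin C is a large matrix glycoprotein of many-armed shape, made by astrocytes in the developing brain and by reactive astrocytes after injury. All of these proteins are made on ribosomes at the endoplasmic reticulum (ER), to which a hydrophobic stretch near the start of the chain directs them.

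The start of the coding sequence is shown for the 3 members with the highest ratios and for the lowest member, because this is the stretch that sends each chain to the ER. Each run holds the first 150 coding bases of the representative transcript in GENCODE M21 (GRCm38), and capitals mark the 33 bases that encode the most hydrophobic window of 11 residues among the first 60.
Fbn1: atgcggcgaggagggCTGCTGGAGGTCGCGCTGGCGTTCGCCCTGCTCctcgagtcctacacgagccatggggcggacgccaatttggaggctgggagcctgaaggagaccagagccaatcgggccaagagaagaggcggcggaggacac
Ltbp2: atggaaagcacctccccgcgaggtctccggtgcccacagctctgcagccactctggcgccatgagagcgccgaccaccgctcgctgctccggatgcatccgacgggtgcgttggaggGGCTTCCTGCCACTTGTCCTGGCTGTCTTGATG
Tnc: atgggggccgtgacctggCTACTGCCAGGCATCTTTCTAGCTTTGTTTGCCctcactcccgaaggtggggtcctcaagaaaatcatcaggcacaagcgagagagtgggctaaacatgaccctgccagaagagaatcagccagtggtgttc
Ltbp3: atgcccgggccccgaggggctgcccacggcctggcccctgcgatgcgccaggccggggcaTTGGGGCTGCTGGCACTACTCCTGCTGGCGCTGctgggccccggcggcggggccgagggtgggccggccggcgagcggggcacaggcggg
These runs lie at chr2:125505454-125505603 (minus strand), chr12:84876142-84876291 (minus strand), chr4:64020451-64020600 (minus strand) and chr19:5742241-5742390 (plus strand). The highest and the lowest member thus both open with such a stretch. The mean Kyte-Doolittle hydropathy of the window was 2.54 in Fbn1, 2.55 in Ltbp2, 2.45 in Tnc and 3.05 in Ltbp3.

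A second landmark is a run of 3 cysteines, found in the cysteine-rich domains that fibrillins and LTBPs share. Most LTBPs can hold latent TGF-beta through a domain of this kind. Which of their runs lies in that domain was not analysed here. The 75 coding bases around the first such run are shown for the highest fibrillin and for the highest and lowest LTBP, with the 9 bases that encode the 3 cysteines in capitals.
Fbn1: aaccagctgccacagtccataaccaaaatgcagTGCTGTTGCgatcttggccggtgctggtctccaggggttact
Ltbp2: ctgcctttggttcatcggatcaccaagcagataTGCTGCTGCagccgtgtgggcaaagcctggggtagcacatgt
Ltbp3: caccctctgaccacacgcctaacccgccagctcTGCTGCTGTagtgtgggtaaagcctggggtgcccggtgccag
They lie within single exons at chr2:125394646-125394720 (minus strand), chr12:84809610-84809684 (minus strand) and chr19:5747475-5747549 (plus strand) of GRCm38. At least 3 such runs were encoded by 7 of 12594 shared protein-coding genes (0.0556%), which are 6 of the members and Dnajc5, a co-chaperone gene chosen after its value was seen. Fbn1 and Fbn2 hold 7 runs each, the 4 LTBPs hold 3 each and Tnc holds 0.

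All 7 members had higher values in the optimized extraction, as did 99.6% of all shared genes (13226 of 13278), and the amounts differed widely. In the authors' deposited table the log2 ratios were 2.78 for Fbn1, 1.93 for Ltbp2, 1.90 for Tnc, 1.59 for Fbn2, 1.13 for Ltbp4, 0.95 for Ltbp1 and 0.64 for Ltbp3. As folds these are 6.85, 3.81, 3.74, 3.01, 2.19, 1.93 and 1.56 in the same order of genes. Of the members 5 were at least 2-fold higher, in a table where 63.0% of all shared genes (8360 of 13278) were. The shared genes had a median log2 ratio of 1.09 (2.13-fold), and 5 members lay above that median. Only Fbn1 lay at least 2-fold above the median itself, as did 0.678% of shared genes (90 of 13278). The median of the members was 1.59. Since the members were chosen with these ratios known, nothing is read from these shares.

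**Figure D1:**
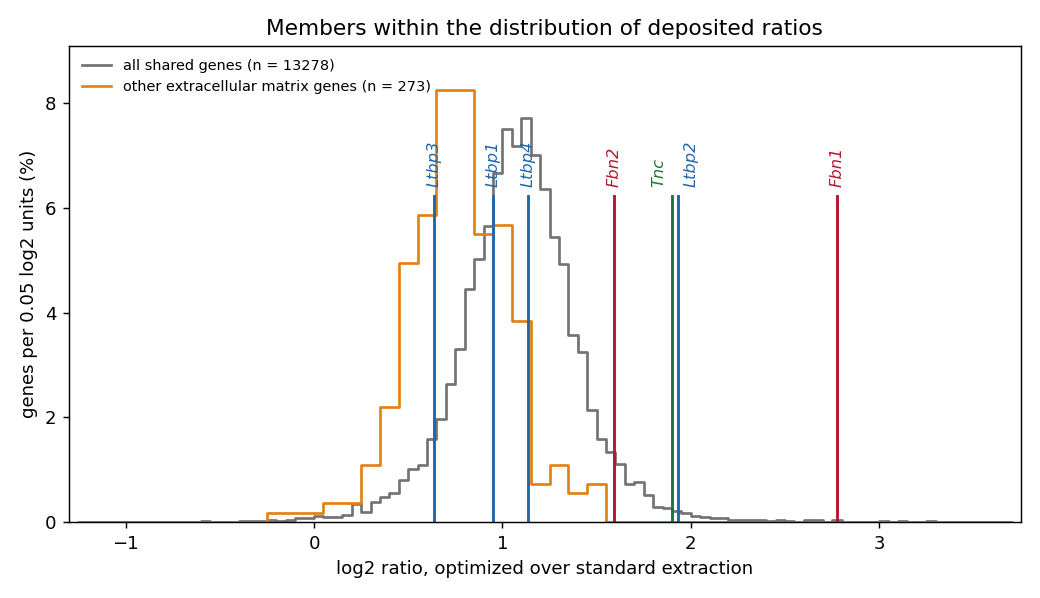
Members within the distribution of deposited log2 ratios (x axis, optimized over standard; y axis, percent of genes per 0.05 log2 units) of all 13278 shared genes (grey) and the 273 other extracellular matrix genes (orange). Vertical lines mark the members; Fbn1 at 2.78, Ltbp2 at 1.93, Tnc at 1.90 and Fbn2 at 1.59 lie to the right of every other matrix gene, and Ltbp3 at 0.64 lies left of the matrix median of 0.77.

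The plot of the distribution shows where the members stand against the rest of the matrix list. The other 273 matrix genes centred on a median log2 ratio of 0.77, with quartiles of 0.60 and 0.95 and a 90th percentile of 1.10. Of them 51 (18.7%) were at least 2-fold higher, against 63.0% of all shared genes, and 30 lay above the shared median. Fbn1, Ltbp2, Tnc and Fbn2 held the first 4 places of the 280 matrix genes, above all of the others. The next genes of the list in the authors' deposited table were the protease gene Prss36 (1.52), Dgcr6 (1.503), Emid1 (1.49), Gfod2 (1.49), the proline isomerase gene Fkbp1a (1.43) and the superoxide dismutase gene Sod1 (1.38). Ltbp4 stood at place 25, Ltbp1 at place 76 and Ltbp3 at place 202. At the low end the authors' deposited table held Abi3bp (0.13), the small proteoglycan gene Aspn (0.07), the fibril-associated collagen gene Col14a1 (-0.01), Egfl6 (-0.05) and the proteoglycan gene Spock1 (-0.24).

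The steps between neighbours in this order were uneven, and whether any exceeds the spread between libraries cannot be said. The gap between Fbn1 and Ltbp2 was 0.85 on the log2 scale, with 128 shared genes and 0 matrix genes between them. Ltbp2 and Tnc differed by 0.03, the smallest gap of the order. Tnc and Fbn2 were 0.31 apart, with 0 matrix genes between them. From Fbn2 to Ltbp4 the gap was 0.46, with 20 matrix genes in it. Ltbp4 and Ltbp1 were 0.19 apart with 50 matrix genes between, and Ltbp1 and Ltbp3 were 0.31 apart with 125 between.

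Among the fibrillins, Fbn1 stood apart from its close relative. Fbn1 (ENSMUSG00000027204; chromosome 2, 125300594 to 125507993, minus strand, 65 exons) encodes the main fibrillin of postnatal tissues and is mutated in Marfan syndrome in humans. Its log2 ratio of 2.78 in the authors' deposited table was place 20 of all shared genes. Of the 19 genes above it, 8 are lncRNA genes, 2 snoRNA genes and 2 unverified transcripts (TEC), 4 have no biotype and 3 are protein-coding. The 3 are Gm14391 (3.52), Gm10801 (3.03) and Gm10800 (2.80) in the authors' deposited table, all marked as unnamed there and all chosen here after their values were seen. Among the 12282 protein-coding genes marked as named, Fbn1 was the highest, before the selenoprotein gene Selenow at 2.69 in the authors' deposited table. Fbn2 (ENSMUSG00000024598; chromosome 18, 58008623 to 58210487, minus strand, 65 exons), the fibrillin most prominent in development, stood at 1.59 there, place 693 of the shared genes. Fbn1 was 1.19 above Fbn2 on the log2 scale, a 2.27-fold higher ratio. The 2 proteins share 69.8% of their aligned residues, have nearly the same length (2873 and 2907 residues) and the same count of exons. Their triple-cysteine runs also fall at matching places, the first at residue 358 and 388 and the last at 2365 and 2403.

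The LTBPs covered a range of 1.29 on the log2 scale, from Ltbp2 to Ltbp3, a 2.45-fold difference in ratio. Ltbp2 (ENSMUSG00000002020; chromosome 12, 84783212 to 84876532, minus strand, 35 exons), the LTBP that does not bind latent TGF-beta, stood at 1.93 in the authors' deposited table, place 149 of the shared genes. Ltbp4 (ENSMUSG00000040488; chromosome 7, 27305136 to 27337692, minus strand, 33 exons), which takes part in elastic fibre assembly, stood at 1.13 there, place 5722. Ltbp1 (ENSMUSG00000001870; chromosome 17, 75005568 to 75392512, plus strand, 30 exons), the binding protein first found with latent TGF-beta, stood at 0.95 in the authors' deposited table, place 9264. Ltbp3 (ENSMUSG00000024940; chromosome 19, 5740904 to 5758532, plus strand, 28 exons), known for a role in tooth and bone, stood at 0.64 there, place 12363. The LTBP that does not hold latent TGF-beta thus had the highest ratio of the 4, and of the other 3 only Ltbp4 lay above the shared median. Protein identity did not order them: the 6 pairs of LTBPs shared 43.9% to 48.6% of aligned residues, with Ltbp1 and Ltbp2, which were 0.98 apart, at 48.6%. Between a fibrillin and an LTBP the identity was 35.5% to 40.7%.

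Tnc (ENSMUSG00000028364; chromosome 4, 63959785 to 64047015, minus strand, 26 exons) stood at 1.90 in the authors' deposited table, place 167 of the shared genes. It shares no triple-cysteine run with the other 6 members, and 25.4% to 27.1% of its aligned residues, so it is the member least like them in sequence. The other tenascin genes lay lower in the authors' deposited table, with Tnn at 1.14, Tnxb at 0.92 and Tnr, the tenascin of mature central nervous tissue, at 0.35. Tnr was the lowest of the 16 shared genes in the list of tenascins and tenascin partners, whose highest was the syndecan gene Sdc4 at 1.19 in the authors' deposited table. Tnn and Tnxb were named after their values were seen.

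**Figure D2:**
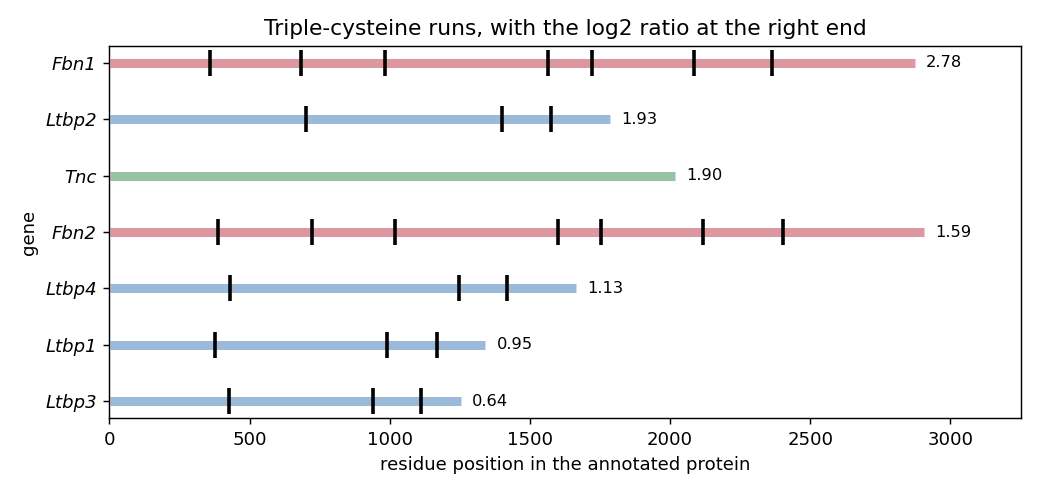
Annotated proteins of the 7 members as bars drawn to scale (x axis, residue position; y axis, gene in order of log2 ratio), with black ticks at triple-cysteine runs and the deposited log2 ratio at the right end. The fibrillins carry 7 runs, the LTBPs 3 and Tnc 0, and members with the same number of runs have ratios from 0.64 to 1.93 (LTBPs) and from 1.59 to 2.78 (fibrillins).

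The map of the proteins sets the count of triple-cysteine runs beside the ratios, and their relation was not tested. Ltbp2 (3 runs) and Tnc (0) lay above Fbn2 (7), while Fbn1 (7) was the highest and Ltbp4, Ltbp1 and Ltbp3 (3 each) were the lowest. Cysteines made up 12.6% of the residues of Fbn1 and 12.5% of Fbn2, between 8.85% and 10.4% of the LTBPs and 4.90% of Tnc, against a median of 1.89% over shared protein-coding genes. Of the other genes with proteins of at least 1000 residues and at least 8% cysteine, all 18 lay below Fbn2, with a median log2 ratio of 0.92. Their highest in the authors' deposited table was the Notch ligand gene Jag2 at 1.44 and their lowest the fibulin gene Fbln2 at 0.56, both also members of the pathway lists below. An Arg-Gly-Asp motif, which integrins can bind, occurred 1 time in Fbn1 and 2 times in Fbn2, and 8.87% of shared protein-coding genes encode at least 1.

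Proteins with a hydrophobic start, counted here as a window of mean hydropathy 2 or more, came from 2804 of the 12594 shared protein-coding genes (22.3%). That limit was set after the members' windows were seen. These genes had a median log2 ratio of 0.88, against 1.13 for the genes without such a start, and the windows printed above place Fbn1, Ltbp2, Tnc and Ltbp3 among them. Fbn2, Ltbp4 and Ltbp1 also belong to them, with windows of 2.06, 2.54 and 3.05. Within the 2804, 2 genes lay above Fbn1, none of them marked as named, 13 above Ltbp2, 14 above Tnc and 47 above Fbn2. By contrast 524 lay above Ltbp4, 1135 above Ltbp1 and 2302 above Ltbp3. The window is a proxy, not a signal peptide prediction, and its part in the ratios was not tested.

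**Figure D3:**
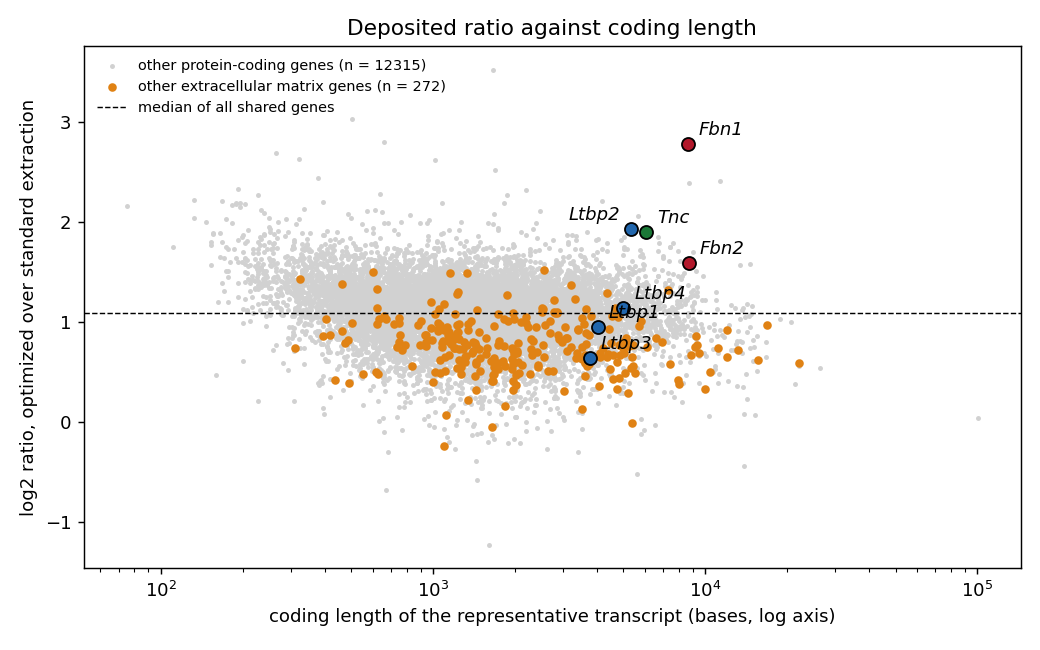
Deposited log2 ratio (y axis) against coding length of the representative transcript (x axis, bases, log axis) for the 7 members (large circles), 272 other extracellular matrix genes (orange) and 12315 other protein-coding genes (grey). The dashed line is the shared median of 1.09. Of the genes of like length, 0 of 172 lie above Fbn1, 1 of 526 above Ltbp2, 3 of 403 above Tnc and 11 of 165 above Fbn2.

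The members are long genes, and the 4 highest are the 4 with the longest coding sequences. Coding lengths were 8721 bases for Fbn2, 8619 for Fbn1, 6057 for Tnc, 5358 for Ltbp2, 4998 for Ltbp4, 4023 for Ltbp1 and 3759 for Ltbp3, against a median of 1422 for shared protein-coding genes. Spearman's rho between ratio and coding length was 0.75 over the 7 members, which were chosen together and share their libraries and family, and no p is given. It was -0.17 over 272 other matrix genes and -0.20 over all 12594 shared protein-coding genes. The median of the 12594 was 1.17 below 1000 coding bases and from 1.02 to 1.06 in every longer length class. Their ratios thus changed little with length over the range of the members. With transcript length rho was 0.82, -0.07 and -0.08 for the same 3 sets. Over the 7 members the other 4 measures gave 0.54 for the length of the 3′ untranslated region, 0.52 for the number of exons, 0.36 for gene span and -0.46 for the GC content of the coding sequence. Coding length depends on the isoform taken: that of Ltbp1 is 5139 in its longest coding transcript. Which isoforms the astrocytes used was not analysed here.

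Genes of like coding length, within 20% of a member's own, give a nearer yardstick. Of 172 such genes for Fbn1, 0 were higher, and their median log2 ratio was 1.02. The next in the authors' deposited table were the pericentrin gene Pcnt (2.39), which organises the centrosome, the DNA polymerase gene Polq (1.79) and the kinetochore motor gene Cenpe (1.75), and the lowest was the utrophin gene Utrn (0.06). For Ltbp2, 1 of 526 was higher, the transcription regulator gene Rai1 at 2.06 in the authors' deposited table, chosen after its value was seen. For Tnc 3 of 403 were higher, and for Fbn2 11 of 165 (6.67%). Ltbp4 stood in the middle range, with 236 of 610 higher (38.7%). Ltbp1 had 620 of 954 above it (65.0%), and Ltbp3 997 of 1075 (92.7%). Among the 36 protein-coding genes at least 2-fold above the shared median, 3 had a coding length of at least 5000 bases: Fbn1, Pcnt and Akap9, a centrosomal and Golgi scaffold gene at 2.41 in the authors' deposited table and chosen after its value was seen. Fbn1 was the only one of the 36 in the matrix list.

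Most of the other long matrix genes lay below the shared median, and the part of length in the ratios was not tested. The other matrix genes with a coding length of at least 3759 bases, that of the shortest member, numbered 60 and centred on 0.71 on the log2 scale (quartiles 0.57 and 0.80). Of these 60, 3 lay above the shared median and 7 were at least 2-fold higher, against 63.0% of all shared genes. Their highest in the authors' deposited table was Nav2 at 1.32 and their lowest Col14a1, already named. In the members' own length windows, 0 other matrix genes of like length lay above Fbn1 (of 11), Ltbp2 (of 35), Tnc (of 21) or Fbn2 (of 11). Above Ltbp4 there were 2 of 38, above Ltbp1 10 of 40 and above Ltbp3 28 of 37.

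The matrix genes with the ratios nearest to each member were found from 1 value per gene that stands for 6 libraries. Nearest to Fbn1, Ltbp2, Tnc and Fbn2 were Prss36 and Dgcr6, which are merely the next genes down, at a wide distance from Fbn1. Nearest to Ltbp4 in the authors' deposited table were the signalling ligand gene Wnt4 (1.13) and Crip2 (1.14). Nearest to Ltbp1 were the collagen gene Col8a1 (0.95) and the elastic fibre gene Emilin1 (0.95) of the authors' deposited table. Nearest to Ltbp3 were the metalloprotease gene Adamts6 (0.64) and the tissue plasminogen activator gene Plat (0.64) of the authors' deposited table.

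**Figure D4:**
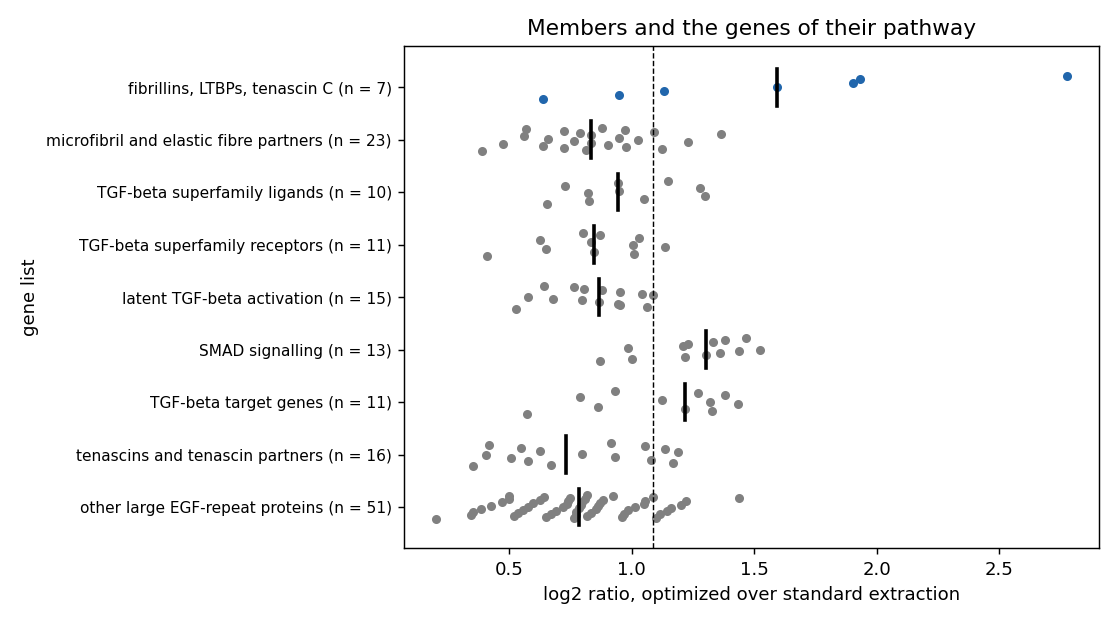
Deposited log2 ratios (x axis, optimized over standard) of the shared genes of each list (y axis), 1 point per gene, with the list median as a black bar and the median of all shared genes (1.09) as a dashed line. The members reach 2.78, while the highest gene of the other lists is Ski at 1.52.

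The plot of the pathway lists sets the members beside lists of partner genes, TGF-beta genes and other genes with EGF repeats. Not every listed gene is known to work with a member. Microfibril and elastic fibre partners (23 of 28 listed genes shared) had a median of 0.83. Of the 23, 5 were at least 2-fold higher (21.7%, against 63.0% of all shared genes) and 4 lay above the shared median. Their highest was Emilin2 at 1.37 and their lowest Mfap5, a small microfibril protein gene, at 0.39 in the authors' deposited table. Elastin itself, Eln, stood at 0.97 and the microfibril gene Mfap2 at 0.48 in the authors' deposited table, both chosen after their values were seen. None of the 23 reached the ratio of Fbn2. None lay at least 2-fold above or below the shared median either, where 0.678% of all shared genes lay above and 0.587% (78 of 13278) below, so a count of 0 among 23 is near the background.

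The lists of ligands, receptors and target genes cover the wider TGF-beta superfamily, with genes such as Inhba, Bmpr1b and Id3 among them. The ligand, receptor and latent activation lists had medians below the shared median, and those of SMAD signalling and target genes had medians above it. The 10 shared ligand genes had a median of 0.95, with 4 at least 2-fold higher and 3 above the shared median, from Tgfb3 at 1.30 to the activin subunit gene Inhba at 0.66 in the authors' deposited table. The 11 shared receptor genes had a median of 0.85, with 4 at least 2-fold higher and 1 above the shared median, from Bmpr1a at 1.14 to Bmpr1b at 0.41 in the authors' deposited table. The 15 shared genes of latent TGF-beta activation, such as integrins and proteases, had a median of 0.87, with 3 at least 2-fold higher. None of the 15 lay above the shared median, and they ranged from the integrin gene Itgb5 (1.09, just under it) to the protease gene Tll1 (0.53) in the authors' deposited table. Of SMAD signalling genes all 13 were shared, with a median of 1.30, 11 at least 2-fold higher and 10 above the shared median. Their highest was the co-repressor gene Ski at 1.52 and their lowest Smad9 at 0.87 in the authors' deposited table. Target genes of the superfamily, 11 of 11 shared, had a median of 1.22, with 7 at least 2-fold higher and 7 above the shared median. They ranged from the transcription regulator gene Id3 at 1.43 to the matrix gene Postn at 0.57 in the authors' deposited table. Id3, Id2 (1.38) and Id1 (1.32) are among the 7 above the shared median, so the median of this list depends on their inclusion. Id1 and Id2 were named after their values were seen. These counts are read against the 63.0% of all shared genes that were at least 2-fold higher, and no list was tested.

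Tenascins and tenascin partners had a median of 0.73, with 5 of 16 at least 2-fold higher (31.25%, against 63.0% of all shared genes) and 3 above the shared median. Other large proteins with EGF repeats (51 of 59 listed genes shared, and 1, Thbs4, listed for the standard extraction alone) had a median of 0.79. Of the 51, 11 were at least 2-fold higher (21.6%, also below the 63.0%) and 7 lay above the shared median. Jag2, at 1.44, was the highest of them and the teneurin gene Tenm1, at 0.20, the lowest in the authors' deposited table. In each of these 8 lists 0 genes lay at least 2-fold above the shared median and 0 at least 2-fold below it, which is near the background of 0.678% and 0.587% of all shared genes.

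Cell type markers stood at or below the shared median for the most part. All 12 astrocyte markers were listed as shared, with a median of 0.97, from 0.61 to 1.18, and 2 lay above the shared median. Fibroblasts, which also make fibrillins and LTBPs, had 7 of 8 markers shared, with a median of 0.65, from -0.01 to 0.75, and none above the shared median. Of these 7 markers, 6 are themselves in the matrix list, against 1 of the 12 astrocyte markers. The other matrix genes had a median of 0.77, so cell type and matrix membership cannot be told apart here. Vascular smooth muscle and pericyte markers (6 of 8 shared) had a median of 0.82 and endothelial markers (4 of 6 shared) a median of 0.69. Of microglial markers 1 of 8 was shared (0.85), of oligodendrocyte lineage markers 5 of 8 (median 1.07) and of neuronal markers 3 of 8 (median 0.72), while 2 more neuronal markers were listed for the standard extraction alone. The deposited ratios carry no levels, so how much RNA each cell type gave was not analysed here, and its part in the ratios of the members was not tested.

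Other annotated genes overlap members, and the counting's strand setting is unstated. On the opposite strand, Gm9913 overlaps Fbn1, D030025P21Rik overlaps Ltbp2, 8030451A03Rik overlaps Tnc and Gm26507 overlaps Fbn2 and no value of theirs was used here. The pseudogene Gm6276 lies within Ltbp1 on the same strand, and no value of it was used here. Fbn1 and Fbn2 are alike over much of their length, and how reads that match both were handled is unstated.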

How the data were processed

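RNA of heavy complexes was sequenced in 6 libraries, 3 per extraction, from a strand-preserving total RNA kit, per the labels' protocols. Per the submitters' processing notes, TopHat2, featureCounts and build mm10 were used; their versions, the counting's strand setting and its annotation are unstated there. The deposited values are log2 ratios per gene, optimized over standard, per the file headers; how the authors scaled the libraries, combined the batches and decided that a gene was listed is unstated. The deposited tables of genes of 1 extraction hold names and biotypes and no value. Depth per library is unknown, and unmatched columns of per-sample values numbered 0.

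The members and all gene lists were chosen with earlier results of these data known. The planned test across libraries needed values per library, so ranks, counts and medians are given with no test. A gene was called when its ratio was at least 2-fold (log2 of 1), or at least 2-fold above the median of all shared genes. Identifiers were matched to GENCODE M21 (GRCm38, the assembly of mm10), where 13273 of 13278 shared genes matched, all 7 members included. The representative transcript was the best APPRIS principal one, then the longest coding one; it gave lengths, printed bases and translated residues. Identity is the share of aligned residue pairs in a global alignment (BLOSUM62, gap open 11, extend 1). Hydropathy is the Kyte-Doolittle mean over 11 residues. The genes named by rule were the 7 members, the 2 nearest matrix genes to each, the 10 highest and 5 lowest matrix genes, the highest and lowest gene of each list, and the 3 highest and the lowest gene within 20% of the coding length of Fbn1; the ends of other sets, and any gene marked so, were chosen after their values were seen. Not every overlap between annotated genes is reported here. The counting and ranking steps were tested on simulated data. Tools were Biopython 1.88, scipy 1.17.1, pandas 2.3.3, numpy 2.4.6, matplotlib 3.10.9 and Python 3.11.15.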

Additional observations from a re-analysis of the deposited data

How the results depend on the processing

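Of 19 alternatives, 15 left their result about where it was (counts within 1.5 times) and 4 moved it. Centring the ratios on the median of all shared genes took the median of the members from 1.59 to 0.50 and the members at least 2-fold higher from 5 to 1, Fbn1; this follows from subtracting 1.09 from every ratio. With the mean in place of the median, the summary of the members went from 1.59 to 1.56, a small shift that is still counted among the 4. Limiting the other matrix genes to long ones took their median from 0.77 to 0.71. With thresholds of 1.5-fold and 3-fold, 7 and 4 members were called. The share of all shared genes passing these thresholds was not computed. Close to them, 93.1% of shared genes lay above Ltbp3 (1.56-fold) and 5.21% above Fbn2 (3.01-fold). The count at 1.5-fold is thus near the background. Nothing is read from the count at 3-fold, because the members were chosen with their ratios known. The count of members in the highest 10% of genes of like coding length was 4 in the main setting and under all 5 other definitions of length or window, 2 of them chosen after seeing the data. Nothing is read from that count either, since every definition reuses the ratios known when the members were chosen.

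No paired analysis was possible because the deposited table holds 1 ratio per gene and no value per library. For the same reason leaving out replicates, other normalizations and a filter on low counts were not run. Whether 1 batch decides the value of Fbn1 or of any other member is unknown, as is the depth behind it.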
